A study of Mus musculus with 24 samples.

Results

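The mitochondrial ribosomal protein mRNAs were taken as every gene symbol of the deposited count table that begins with Mrpl or Mrps, continues with digits and ends there or with a single letter a or b. This gave 77 genes of the 49568 in the table, 49 with large-subunit (Mrpl) and 28 with small-subunit (Mrps) symbols. Mrps18c, the small-subunit relative of Mrps18a and Mrps18b, falls outside this pattern and was not counted. The symbols do not always name the subunit, since the Mrps30 and Mrps18a proteins sit in the large subunit, where they are counted below, and the Mrps36 protein is a component of the 2-oxoglutarate dehydrogenase complex.

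The mRNAs came from NIH/3T3 cells, an established mouse fibroblast line, grown with 10% bovine calf serum and treated for 24 h at 37 °C with halofuginone or with the PBS vehicle, and the labels name no genetic change. Halofuginone inhibits the prolyl-tRNA synthetase activity of Eprs, and the sample labels give 100 nM. Libraries were made from total RNA and from a polysome gradient collected as 3 pools, which are ribosome-free (free mRNA and single subunits), light (mRNAs on few ribosomes) and heavy (more than 5 ribosomes). The 8 groups held 3 libraries each, which the series describes as biological replicates.

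The mitochondrial ribosome translates the few proteins encoded by mitochondrial DNA, all of them parts of the respiratory chain and ATP synthase. Its own proteins are encoded in the nucleus, translated on cytosolic ribosomes and imported, so their mRNAs sit on cytosolic polysomes like any other. Some descend from bacterial ribosomal proteins and others were added in mitochondria. The transcription factors NRF1, GABP (of the ETS family) and YY1 are known to bind the promoters of many nuclear genes for mitochondrial proteins.

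The coding sequences of these genes are short, and 2 of the shortest are shown because length went with polysome position in the results below. Mrpl33 (198 nt) encodes a bacterial-type large-subunit protein and Mrps21 (264 nt) a bacterial-type small-subunit protein. Capitals mark the start codon, the stop codon and each proline codon, the codon family whose tRNA Eprs charges. The sequences are those of the GENCODE M21 annotation of GRCm38.
Mrpl33: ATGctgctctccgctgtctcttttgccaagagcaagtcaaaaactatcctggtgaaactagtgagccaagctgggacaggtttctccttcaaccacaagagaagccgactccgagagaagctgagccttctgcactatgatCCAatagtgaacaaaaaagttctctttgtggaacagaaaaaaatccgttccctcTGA
Mrps21: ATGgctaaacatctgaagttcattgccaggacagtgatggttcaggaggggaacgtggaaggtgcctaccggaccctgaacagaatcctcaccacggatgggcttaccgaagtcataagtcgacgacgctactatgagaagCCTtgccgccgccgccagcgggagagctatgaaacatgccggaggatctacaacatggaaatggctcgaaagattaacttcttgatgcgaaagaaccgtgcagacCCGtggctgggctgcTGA
Mrpl33 has 1 proline codon (1.54% of its codons) and Mrps21 has 2 (2.30%). Over the 77 genes the median was 6.4% proline codons, against 5.26% for all genes with a complete coding sequence, and the highest was 12.6% in Mrps18b. Median coding length was 591 nt (range 198 to 1329), against 1197 nt for all genes, and the median 5′ untranslated region was 91 nt against 155 nt.

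Promoter sequence was available from RefSeq (GRCm38.p6) for 68 of the genes. The 120 nt before the start are shown for 4 genes at the ends of the response in total RNA. Mrpl1 and Mrpl32 were among the 4 largest rises and Mrps21 and Mrps11 among the 4 largest falls, and capitals mark matches to the motifs given next. The other 4 genes at these ends, Mrps18b, Mrpl24, Mrps36 and Mrps25, had no match in the same stretch, so the sequences shown over-represent matches. Mrpl1 lies on the plus strand (chr5:96209995-96210114), Mrpl32 on the minus strand (chr13:14613038-14613157), Mrps21 on the minus strand (chr3:95871515-95871634) and Mrps11 on the plus strand (chr7:78783011-78783130).
Mrpl1: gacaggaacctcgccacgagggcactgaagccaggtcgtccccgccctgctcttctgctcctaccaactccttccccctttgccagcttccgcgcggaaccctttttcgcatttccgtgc
Mrpl32: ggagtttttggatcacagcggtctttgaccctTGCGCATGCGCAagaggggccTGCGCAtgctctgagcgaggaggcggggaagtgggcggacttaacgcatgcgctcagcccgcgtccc
Mrps21: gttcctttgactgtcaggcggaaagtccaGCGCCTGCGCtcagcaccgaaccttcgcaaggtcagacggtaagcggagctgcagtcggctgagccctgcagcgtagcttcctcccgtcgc
Mrps11: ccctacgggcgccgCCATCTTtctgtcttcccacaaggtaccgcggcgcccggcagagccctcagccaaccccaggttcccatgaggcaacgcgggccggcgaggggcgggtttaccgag
In the 250 nt before the start, on either strand, the NRF1 motif GCGCANGCGC was present in 10 of 68 genes (14.7%), against 4.99% of 19044 promoters. TGCGCA, a shorter NRF1 element that can overlap it, was present in 18 (26.5% against 8.02%). The ETS motif CCGGAAG was present in 16 (23.5% against 8.69%), and the YY1 motif AAGATGG in 6 (8.82% against 4.16%). TGATGNAAT, the composite element bound by ATF4, was found in none of the 68 (0.725% of all promoters). These are letter matches in a fixed window and not binding sites.

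Of the 77 genes, 76 passed edgeR's expression filter in every comparison. Mrpl53 was the exception, with counts of 0 in nearly all libraries, and Mrpl23 stayed at 1.66 to 7.34 CPM (counts scaled to library size, normalised within each kind of RNA) over the 24 libraries. Per kilobase of annotated transcript in vehicle total RNA, the median level was 26.1 CPM per kb. The highest levels were 113 ± 18.1 for Mrpl33, 109 ± 24.3 for Mrps6, 98.6 ± 16.9 for Mrpl52, 97.5 ± 9.97 for Mrpl42 and 91.1 ± 15.7 for Mrps21, in CPM per kb (SD, n = 3). Neighbours in this order did not differ beyond their spread, and all 5 genes have coding sequences under 450 nt. Near the other end were Mrpl1 at 4.72 ± 1.01 and Mrpl48 at 4.40 ± 0.697 CPM per kb (SD, n = 3), above only Mrpl23 and Mrpl53. Levels per kb depend on the transcript chosen, which for genes with a long annotated 3′ end may not be the main form in these cells.

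Library totals ran from 10300517 to 24970047 counts. Of 10 fibroblast markers 9 reached a mean of 5 CPM in total RNA, while 0 of 5 epithelial and 0 of 6 leukocyte markers did. The column headers split the libraries into 2 sets. In set A (8 columns) the halofuginone headers name 50 nM and the pools hold gradient fractions 1 to 2, 3 to 6 and 7 to 11. Set B (16 columns, tagged 2 and 3 in total RNA and 2 and 4 in the pools) holds fractions 1 to 5, 6 to 13 and 14 to 21. In total RNA of set B 9 of the 10 fibroblast markers fell with the treatment and 1 rose, while 36.9% of all genes fell and 33.1% rose. Both adipocyte markers tested also fell there. They were Lpl (mean 173 CPM in vehicle and 113 CPM with halofuginone over all total RNA libraries) and Fabp4 (11 and 2.30 CPM). The endothelial marker Vwf averaged 14.1 CPM in vehicle and 64.0 CPM with halofuginone, with the defining markers Cdh5 and Pecam1 near 0. In bulk RNA, fewer cells of a type and less RNA per cell cannot be told apart. The ribosome-free libraries of set A stood apart from those of set B. There the 77 genes summed to 10195 CPM in vehicle and 9531 CPM with halofuginone, against 3319 to 3544 CPM in the 4 libraries of set B. Mitochondrially encoded RNA made up 8.69% and 11.1% of their counts, against 22.9 to 34.9%. Their part in the ribosome-free results was not tested, and those results are given with and without set A.

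In vehicle-treated cells these mRNAs spread widely between light and heavy polysomes, the shortest coding sequences toward light and the longer ones toward heavy polysomes. Of the 76 genes, 15 (19.7%) were higher in heavy than in light polysomes, against 13.7% of all genes tested, and 20 (26.3%) were lower, against 18.1%. The median log2 fold change was -0.02, and 0.11 without light tag 4. Calls are from edgeR's quasi-likelihood test with Benjamini-Hochberg adjustment over all genes, at an adjusted p of 0.05. With the column tag as a block, which pairs the pools that share a tag, 27 of the 76 were higher (31.8% of all genes) and 26 lower (32.6%). In that paired fit both counts were close to the shares of all genes.

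The lowest ratios belonged to small proteins of both subunits. Mrpl42, a large-subunit protein particular to mitochondria, stood at 171, 217 and 222 CPM in the light libraries (set A, tag 2, tag 4) and at 35.6, 36.8 and 36.8 CPM in the heavy ones (log2 fold change -2.59 ± 0.22 SE, edgeR adjusted p = 0.00104). Mrps21 gave 150.3, 183 and 208 CPM in light and 26.9, 38.4 and 37.5 CPM in heavy polysomes (-2.50 ± 0.26, adjusted p = 0.00144). Mrpl33 gave 119, 185 and 214 CPM in light and 29.1, 37.4 and 34.0 CPM in heavy polysomes (-2.46 ± 0.28, adjusted p = 0.00186). In these CPM, which are scaled within each pool, every heavy library of these genes was far below every light one. Mrpl36, a bacterial-type large-subunit protein, was lower by the same test (-2.07 ± 0.22), as was Mrps36 (-1.65 ± 0.28).

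The highest ratios belonged to genes with longer coding sequences (756 nt in Mrpl16 to 1248 nt in Mrps27 among those named). Mrpl39, a large-subunit protein related to an aminoacyl-tRNA synthetase, stood at 47.6, 40.0 and 44.9 CPM in light and 114, 121 and 129 CPM in heavy polysomes (1.36 ± 0.19, edgeR adjusted p = 0.00337). Mrps22, a small-subunit protein particular to mitochondria, stood at 13.6, 15.6 and 12.7 CPM in light and 33.4, 35.6 and 43.6 CPM in heavy polysomes (1.32 ± 0.22, adjusted p = 0.00592). On the same within-pool scale every heavy library of both genes was above every light one. Mrps31 (1.34 ± 0.25), Mrpl16 (1.24 ± 0.29), Mrps27, a pentatricopeptide repeat protein (0.99 ± 0.20), and Mrpl3, which lies near the peptidyl transferase centre (0.93 ± 0.25), were also higher in heavy polysomes. The stalk proteins of the large subunit, Mrpl12, Mrpl10 and Mrpl11, gave -0.06 ± 0.22, 0.23 ± 0.24 and -0.17 ± 0.21, and none passed the test.

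Coding length ordered these mRNAs between the pools. Across the 76 genes, coding length (on a log2 scale, here and below) and the log2 heavy to light ratio had Pearson's r of 0.822 and Spearman's rho of 0.837, against 0.38 and 0.308 across 11166 genes. These 2 sets cover unlike ranges of length, since 8263 of the 11166 genes had 900 nt or more, against 15 of the 76. The same holds for the length correlations given below. The points share the same 6 libraries, and genes are not independent replicates. Of the 20 genes under 450 nt, 17 were lower in heavy polysomes and 0 had a ratio above 0, with a median of -1.06 (-1.72 for all genes of that length, 75.6% of them lower). The 41 genes of 450 to under 900 nt had a median of 0.17 (-0.26 for all genes). Of these 7 were higher and 3 lower (7.6% and 22.6% of all genes of that length). Of the 15 genes of 900 nt or more, 8 were higher and 0 lower, with a median of 0.93 (0.27 for all genes, 18.2% of them higher). Mrpl18, a bacterial-type large-subunit protein of 543 nt named here after its value was seen, had a ratio of -1.97 ± 0.31 on the log2 scale, below the median of its length class. Proline codon content (r = 0.10) and 5′ untranslated length (r = -0.12) showed weak correlations over the same 76 genes.

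**Figure D1:**
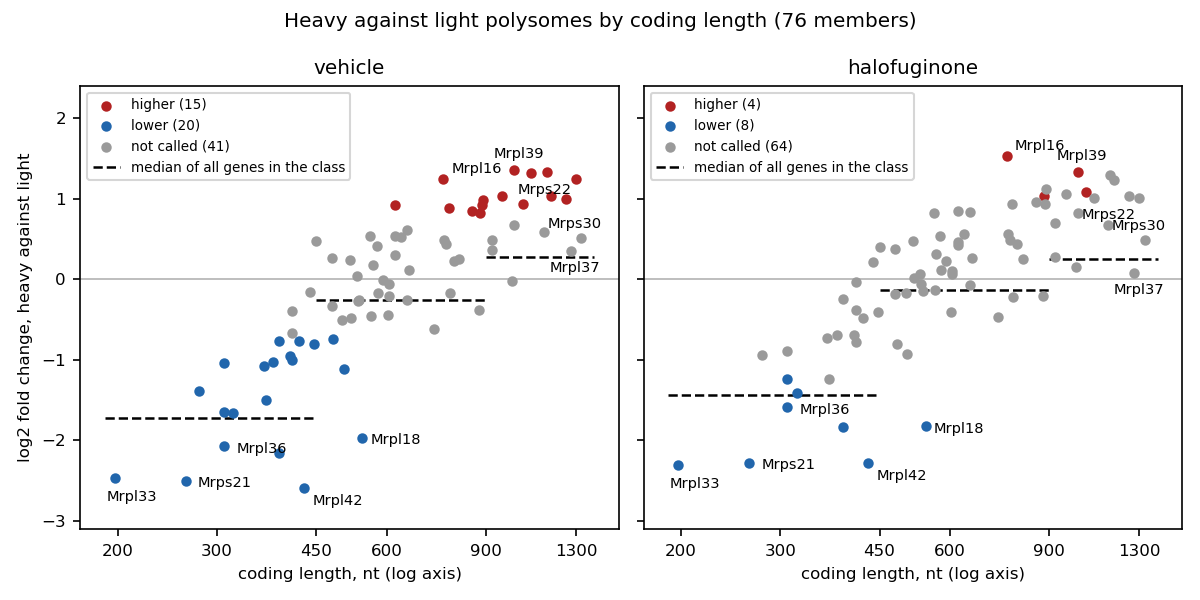
Log2 fold change of heavy against light polysomes (y) by coding length in nt (x) for 76 mitochondrial ribosomal protein genes in vehicle (left) and with halofuginone (right). Points are genes coloured by edgeR call, dashed lines are the medians of all genes in the 3 length classes, and Mrpl33, Mrps21 and Mrpl42 lie lowest under both treatments.

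With halofuginone fewer genes passed the test. Of the 76 genes 4 (5.26%) were higher in heavy than in light polysomes, against 1.9% of all genes, and 8 (10.5%) were lower, against 7.05%. With the tag as a block these counts were 22 (25.8% of all genes) and 18 (26.5%), again close to the shares of all genes. The 4 were Mrpl16 (1.53 ± 0.33), Mrpl39 (1.33 ± 0.28), Mrpl3 (1.08 ± 0.27) and Mrpl19 (1.04 ± 0.27), and the lowest were Mrpl33 (-2.31 ± 0.40), Mrpl42 (-2.28 ± 0.33) and Mrps21 (-2.28 ± 0.40). Coding length correlated with the ratio at r = 0.784 over the 76 genes (0.348 over 10990 genes). Counts of calls moved with single libraries. In vehicle, the number higher was 5 without light tag 2, 8 without light tag 4, 9 without heavy set A and 8 without heavy tag 4. The number lower there was 12 without light tag 4 and 13 without heavy tag 2 or heavy tag 4. With halofuginone 2 were higher without heavy tag 2 and 0 without any other library. The number lower was 0 without heavy set A or heavy tag 4, 1 without light tag 2, 4 without light tag 4 and 5 without light set A. In set B alone the halofuginone libraries gave 0 of either. How many of all genes were called in these runs was not counted.

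As a share of the 3 pools together, the median gene had 23.2% of its CPM in heavy polysomes in vehicle set A, 35.9% in tag 2 and 37.0% in tag 4. With halofuginone these medians were 28.3%, 42.0% and 35.7%, so the treated share was higher in set A and tag 2 and lower in tag 4. The medians over 13507 genes lay between 32.4% and 34.9%, a steadiness that the scaling over the pool libraries itself favours. With plain library totals they lay between 34.3% and 40.3%. Those of the group were then 29.2%, 42.7% and 40.2% in vehicle and 34.9%, 50.2% and 37.3% with halofuginone, in the same order of tags. The share weighs the pools equally and is not a count of molecules. Mrpl42 had 3.82%, 6.13% and 7.29% of its CPM in heavy polysomes in vehicle and 4.36%, 10.7% and 8.10% with halofuginone. For Mrpl16 the heavy share was 41.3%, 61.8% and 66.4% under vehicle and 48.6%, 67.2% and 65.5% under the drug. The 2 genes lay far apart in every tag.

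**Figure D2:**
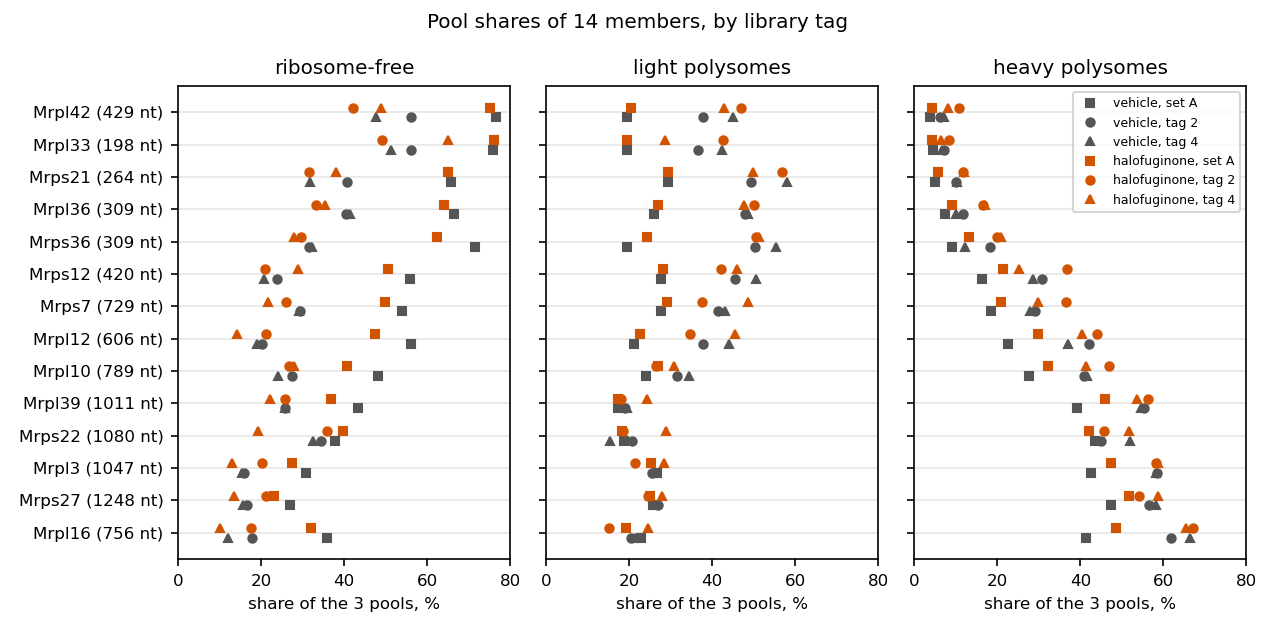
Share of the summed CPM of the 3 pools (x, percent) found in the ribosome-free, light and heavy pools for 14 genes (y). Each symbol is 1 tag (squares set A, circles tag 2, triangles tag 4) in vehicle (grey) or halofuginone (orange), and Mrpl42, Mrpl33 and Mrps21 have the smallest heavy shares.

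Between heavy polysomes and the ribosome-free pool the result depended on set A. In vehicle 1 gene (1.32%) was higher in heavy polysomes, against 11.9% of all genes, and 13 (17.1%) were lower, against 17.7%, with a median of -0.53. Mrps27 was the higher gene, at 23.6, 10.1 and 11.6 CPM in the ribosome-free and 64.2, 54.9 and 70.3 CPM in the heavy libraries (1.23 ± 0.41, edgeR adjusted p = 0.0482). Its heavy libraries were all above its ribosome-free ones in these CPM. They are scaled within each pool and not across pools, so only the fit puts both pools on one scale. Mrpl42 (-3.74 ± 0.53), Mrpl33 (-3.55 ± 0.44) and Mrps21 (-2.80 ± 0.52) were the lowest. Mrpl3 gave 1.02 ± 0.51 (edgeR adjusted p = 0.156, and 0.0411 with the tag as a block) and Mrpl16 gave 0.89 ± 0.61 (adjusted p = 0.3). With the block 2 genes were higher (16.8% of all genes) and 15 lower (20.1%).

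Calls over all genes were not counted for the runs below without a library, in set B alone or with plain totals. Without the vehicle ribosome-free library of set A, 27 genes were higher and 13 lower, and the median was 0.29. Leaving out any other single library gave 0 higher, and without any 1 of the 3 heavy libraries 6 were lower. In set B alone 27 were higher, with a median of 0.30, and with plain library totals 13 were higher and 6 lower. With halofuginone 2 genes (2.63%) were higher, against 8.47% of all genes, and 6 (7.89%) were lower, against 12.6%, with a median of -0.15. That median was 0.55 without the halofuginone ribosome-free library of set A, 0.45 in set B alone and 0.62 with plain totals. The higher genes were Mrps27 (1.45 ± 0.41) and Mrpl3 (1.29 ± 0.41). Without the halofuginone ribosome-free library of set A 19 were higher. Without heavy tag 2 there was 1, and without ribosome-free tag 2, ribosome-free tag 4, heavy set A or heavy tag 4 there were 0. The number lower was 2 without heavy set A or heavy tag 4. With the tag as a block 5 were higher (13.4% of all genes) and 9 lower (16.9%).

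Whether halofuginone changed the amount of these mRNAs was asked in total RNA. Over all 6 libraries 0 of 76 genes passed edgeR's test (0% of all genes, smallest adjusted p 0.267). At an unadjusted p under 0.05 there were 20 of the 76, all higher, against 1455 higher and 837 lower of all 13020 genes. DESeq2 called 1 of the 76. The median log2 fold change was 0.20 (0.02 for all genes), and 53 of 76 (69.74%) lay above 0, against 51.25% of all genes. The median was 0.12 without vehicle tag 2. In 28 genes (36.8%) every halofuginone library was above every vehicle library, against 12.2% of all genes. In 0 genes was every halofuginone library below, against 11.6% of all genes. Leaving out the halofuginone library of set A gave 30 higher and 16 lower, and leaving out any other single library gave 0 of either. Calls over all genes were not counted in these runs.

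Set B holds 4 of the 6 libraries, and its fit was added with earlier results of these data known. In it 37 genes (48.7%) rose, against 33.1% of all genes, and 19 (25%) fell, against 36.9%. The median was 0.19 (-0.02 for all genes). Leaving out any 1 of the 4 libraries gave 28 to 40 rises and 11 to 24 falls, and the number of falls was 11 without halofuginone tag 3. In the set A pair the log2 ratios lay close together (quartiles 0.05 and 0.22), and 62 of 76 were above 0. Of the 37 genes that rose in set B, 29 were above 0 in set A, and of the 19 that fell, 4 were below 0 there. Across the 76 genes the set A ratios and the set B fold changes had r = 0.021 (0.148 over 12956 genes), given as a description. The difference between the sets was not tested.

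The largest rises in set B were in proteins of both subunits. Mrpl1, of the mobile L1 stalk of the large subunit, stood at 15.2, 20.9 and 14.2 CPM in vehicle (set A, tag 2, tag 3) and 16.1, 45.8 and 44.4 CPM with halofuginone (set B log2 fold change 1.30 ± 0.16 SE, edgeR adjusted p = 0.000184). Mrps18b, a small-subunit protein and the gene with the highest share of proline codons of the 77, stood at 30.2, 26.7 and 27.7 CPM in vehicle and 33.6, 68.6 and 65.3 CPM with halofuginone (1.25 ± 0.08, adjusted p = 5.95e-06). Mrpl24 stood at 35.2, 23.3 and 26.3 CPM in vehicle and 40.9, 61.3 and 57.4 CPM with halofuginone (1.22 ± 0.09, adjusted p = 1.42e-05). In Mrps18b and Mrpl24 all treated libraries were above all vehicle ones, while the set A treated library of Mrpl1 fell within its vehicle range. Mrpl32 (1.06 ± 0.09), a protein matured by a protease of the inner membrane, and Mrps30 (0.98 ± 0.08) also rose.

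The largest falls were in Mrps36 and in small-subunit proteins. Mrps36 stood at 11.4, 7.35 and 8.86 CPM in vehicle and 11.9, 3.76 and 3.83 CPM with halofuginone (-1.13 ± 0.16, edgeR adjusted p = 0.000471). Mrps21 stood at 49.6, 35.7 and 48.2 CPM in vehicle and 58.4, 22.5 and 21.5 CPM with halofuginone (-0.97 ± 0.14, adjusted p = 0.000501). Mrps25, a small-subunit protein particular to mitochondria, stood at 46.2, 38.1 and 42.0 CPM in vehicle and 50.2, 22.5 and 21.6 CPM with halofuginone (-0.90 ± 0.09, adjusted p = 6.74e-05). In each of these genes the set A treated library was the highest of the 6 and the 2 treated libraries of set B were the lowest. Mrps11, of the platform of the small subunit, fell by 0.92 (SE 0.11). Its exons overlap those of Mrpl46 on the opposite strand, and whether the counting used strand is not given in the sources used here, so the reads of both genes may not be fully separated. The same holds for each of the 28 genes of the group whose exons overlap another gene on the opposite strand, which include Mrps25, Mrpl24, Mrps18b, Mrpl12, Mrps7, Mrps27, Mrps30 and Mrpl36, and for the 7 with an overlap on the same strand.

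**Figure D3:**
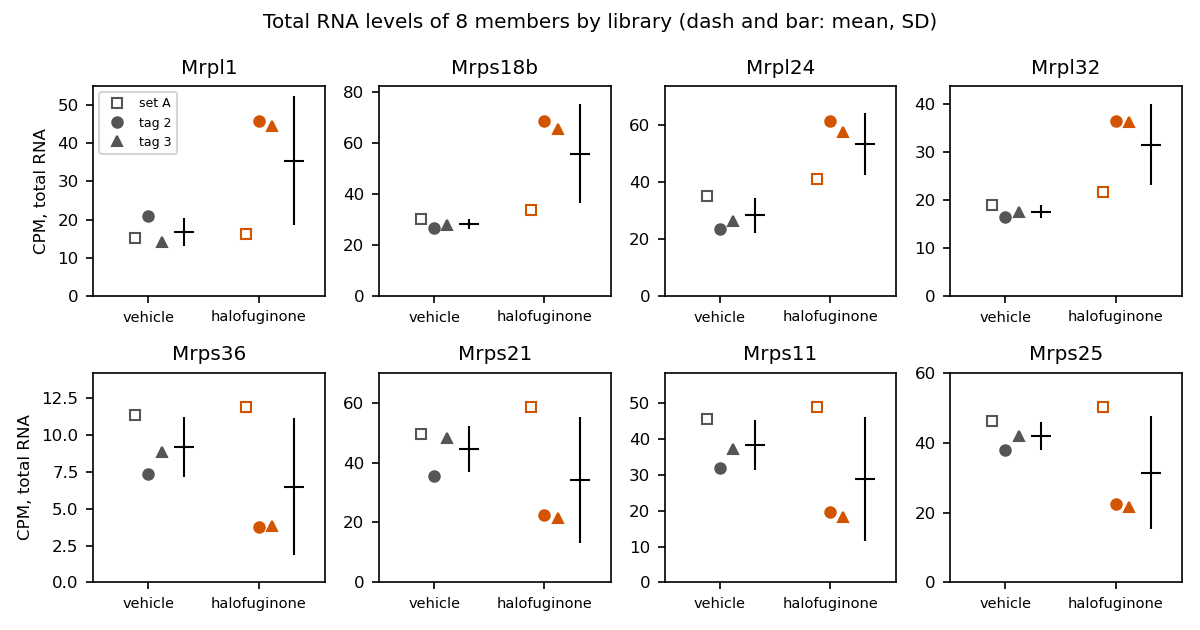
CPM in total RNA (y) for 8 genes in vehicle and halofuginone libraries (x), with open squares for set A and the mean with SD (n = 3) beside the points. Mrpl1, Mrps18b, Mrpl24 and Mrpl32 are highest in the treated libraries of set B, and Mrps36, Mrps21, Mrps11 and Mrps25 are lowest there.

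By role, the bacterial-type proteins of the large subunit had 18 rises and 7 falls among 30 genes in set B, with a median of 0.36. For this and the counts that follow, 33.1% of all genes rose and 36.9% fell in the same fit. Of the stalk proteins Mrpl12 rose (0.63 ± 0.08), while Mrpl10 (0.16 ± 0.07) and Mrpl11 (-0.07 ± 0.08) did not pass the test. Mrpl35 (1.06 ± 0.12), Mrpl3 (0.21 ± 0.08) and Mrpl36 (0.30 ± 0.11) rose and Mrpl33 (-0.53 ± 0.10) fell. The large-subunit proteins particular to mitochondria had 8 rises and 5 falls among 20 genes, with a median of -0.07. Mrpl44, which has a ribonuclease III fold, rose (0.26 ± 0.09) and Mrpl41 fell (-0.61 ± 0.12). Mrpl45, near the tunnel exit at the inner membrane (0.01 ± 0.08), Mrpl58, a peptidyl-tRNA hydrolase (-0.06 ± 0.10), and Mrps18a (-0.10 ± 0.08) did not pass.

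The bacterial-type small-subunit proteins had 6 rises and 4 falls among 15 genes, with a median of -0.02. Mrps7, of the small-subunit head, rose (0.61 ± 0.08) and Mrps12, at the decoding centre, fell (-0.61 ± 0.14). The small-subunit proteins particular to mitochondria had 5 rises and 2 falls among 10 genes, with a median of 0.29. Mrps22 (0.89 ± 0.10), Mrps31 (0.75 ± 0.11) and Mrps27 (0.34 ± 0.09) rose and Mrps34 (-0.60 ± 0.10) fell. Differences between these subgroups were not tested.

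Length and promoter letters were set beside the set B fold changes as a description. Coding length correlated with the fold change at r = 0.419 over the 76 genes, against 0.008 over 11488 genes. For their treatment fold change in heavy polysomes it was 0.035, and the values that follow are again of set B. Of the 15 genes of 900 nt or more, 12 rose and 1 fell, while of the 20 genes under 450 nt, 5 rose and 9 fell. Among all genes of 900 nt or more, 33.9% rose and 39.6% fell. Among all genes under 450 nt 28.3% rose and 41.6% fell, close to the 25% and 45% of the short genes here. GC content of the coding sequence correlated at -0.322 (-0.114 over all genes). For the motif counts that follow, 48.7% of the 76 genes rose and 25% fell in this fit, against 33.1% and 36.9% of all genes. Calls among all genes with each motif were not counted. Of the 18 genes with TGCGCA in the promoter window 9 rose and 0 fell, against 23 rises and 17 falls among the 49 tested genes without it. Of the 10 with the NRF1 motif 6 rose and 2 fell, against 26 and 15 of the 57 without it. For the ETS motif the medians lay the other way, at -0.06 in 15 tested genes with it (6 rose, 5 fell) and 0.19 in the 52 without. Of the 6 with the YY1 motif 4 rose and 2 fell. None of these differences was tested.

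**Figure D4:**
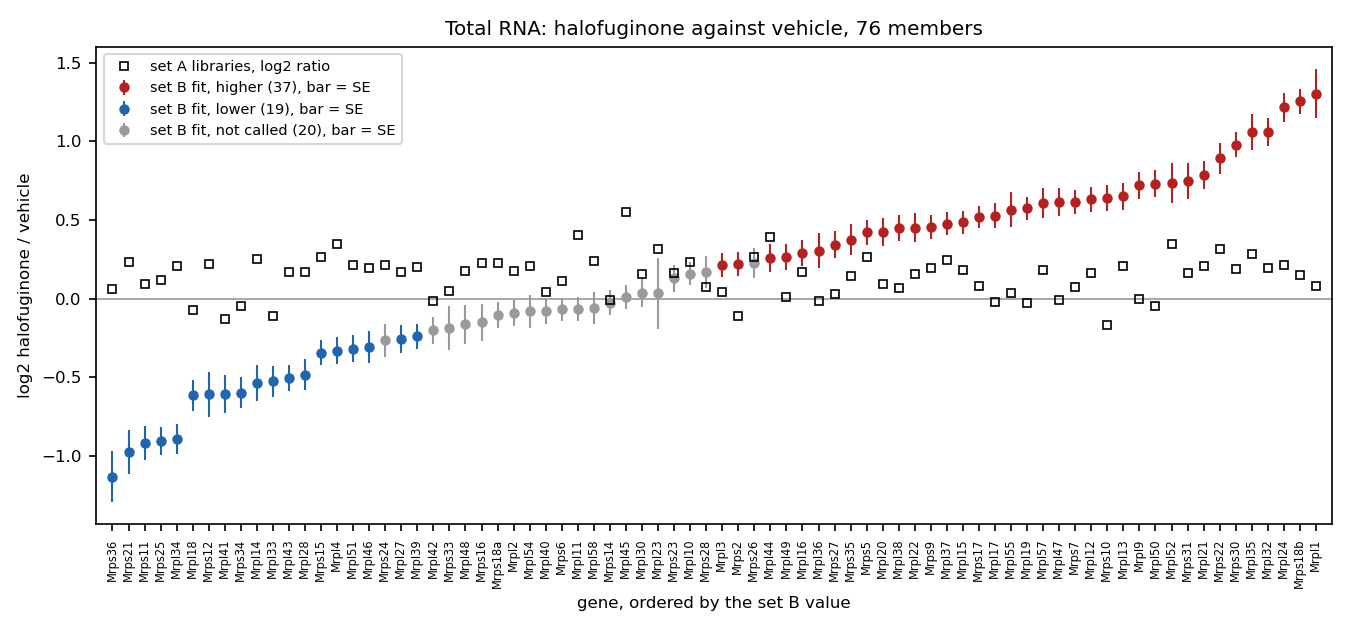
Log2 ratio of halofuginone to vehicle in total RNA (y) for 76 genes ordered by the set B value (x). Filled points are the set B fit with its SE, coloured by call (37 higher, 19 lower), and open squares are the log2 ratio of the single pair of set A libraries, with quartiles of 0.05 and 0.22.

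Other genes of the mitochondrial translation system were counted in the same set B fit, in which 33.1% of all genes rose and 36.9% fell. Of 5 mitoribosome proteins under other symbols 3 rose and 1 fell, with Ptcd3, a pentatricopeptide repeat protein of the small subunit, at 1.02 ± 0.11. Of 24 genes for assembly and rRNA modification 13 rose and 2 fell. Mterf3, a regulator of mitochondrial transcription and ribosome assembly (1.17 ± 0.12), and the pseudouridine synthase gene Rpusd4 (1.12 ± 0.09) rose, and the rRNA methyltransferase gene Mrm2 (-1.12 ± 0.14) fell. Of 18 translation factors and related genes 5 rose and 4 fell, with Lrpprc, which stabilises mitochondrial mRNAs, at 0.73 ± 0.08. Of 14 genes for mitochondrial transcription and its nuclear regulators 9 rose and 3 fell. The elongation factor gene Tefm (1.02 ± 0.11) and Nrf1 (0.68 ± 0.08) rose, and the coactivator gene Ppargc1a (-0.75 ± 0.08) fell. The cytosolic ribosomal proteins, counted in the same way, had 25 rises and 27 falls among 80 genes. Most of the named genes did not move in the set B direction in the single pair of set A libraries. Vehicle and halofuginone there gave 44.1 and 38.4 CPM for Nrf1, 6.80 and 6.75 for Tefm, and 35.9 and 36.1 for Ppargc1a. Ptcd3 gave 75.05 and 70.8 CPM and Mterf3 15.9 and 15.6 CPM. Lrpprc (196 and 199 CPM), Rpusd4 (18.5 and 19.1 CPM) and Mrm2 (10.9 and 8.92 CPM) moved in the set B direction.

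In heavy polysomes 0 of 76 genes passed the test between treatments (0% of all genes, smallest adjusted p among the 76 genes 0.792, edgeR). At an unadjusted p under 0.05 there were 2 of the 76, both higher, against 236 higher and 518 lower of all 12222 genes. DESeq2 called 0 of the 76. The log2 fold change was above 0 in 68 of 76 genes (89.47%), against 51.59% of all genes, with a median of 0.22 (0.02 for all genes). In 15 genes (19.7%) the treated libraries were all above the vehicle ones, against 5.39% of all genes, and in 1 (1.32%) they were all below, against 7.06%. The cytosolic ribosomal proteins had a median of 0.43 there, with 75 of 79 genes above 0.

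Mrpl35, a bacterial-type large-subunit protein, stood at 75.9, 81.8 and 85.0 CPM in vehicle heavy polysomes and 119, 120.1 and 139 CPM with halofuginone (0.64 ± 0.21, edgeR adjusted p = 0.792). Mrpl12 stood at 286, 279 and 276 CPM in vehicle and 392, 352 and 431 CPM with halofuginone (0.48 ± 0.22, adjusted p = 0.811). Neither gene's groups overlapped, and neither passed the test. Mrpl24 had the highest value (0.90 ± 0.44), with 50.4, 53.5 and 78.8 CPM in vehicle and 75.9, 66.5 and 198 CPM with halofuginone, where tag 4 lay far above the other libraries. Mrpl1 gave 0.78 ± 0.43. The lowest were Mrps34 (-0.33 ± 0.30), Mrpl17 (-0.30 ± 0.22) and Mrpl4 (-0.10 ± 0.25), and Mrpl17 was the 1 gene whose treated libraries were all below the vehicle ones.

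In light polysomes 0 genes passed edgeR's test (0% of all genes, smallest adjusted p among the 76 genes 0.981), with 0 at an unadjusted p under 0.05 and 0 by DESeq2. The median was 0.08 and 49 of 76 (64.47%) were above 0, against 51.57% of all genes. That median was -0.015 without halofuginone tag 4, 0.19 without halofuginone tag 2 and 0.17 without vehicle set A. Treated libraries were all above vehicle in 3 genes (3.95%, against 4.44% of all genes) and all below in 2 (2.63%, against 5.97%). Mrps22 (0.78 ± 0.40), Mrpl24 (0.73 ± 0.60) and Mrpl1 (0.68 ± 0.40) were highest, and Mrps34 (-0.44 ± 0.24), Mrps12 (-0.30 ± 0.27) and Mrpl17 (-0.28 ± 0.35) lowest. The Mrpl24 value was -0.26 without halofuginone tag 4.

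In the ribosome-free pool 0 genes passed edgeR's test (0% of all genes, smallest adjusted p 1), with 0 at an unadjusted p under 0.05 and 0 by DESeq2. The groups lay apart in 0 genes in either direction (1.15% of all genes higher and 0.853% lower). The median was -0.06 and 26 of 76 were above 0. Among genes of at least 5 CPM, Mrpl47 (0.40 ± 0.42) was highest and Mrps36 (-0.49 ± 0.76) lowest. In set B alone the median of the 76 genes was 0.05. With the tag as a block it was 0.004. Without 1 library of set A, which leaves set A unequal between treatments, it was 0.69 (vehicle left out) or -0.72 (halofuginone left out). It was 0.19 without halofuginone tag 2 or tag 4.

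The pairs of libraries with 1 tag differed. In heavy polysomes the median log2 ratio of the 76 genes was 0.17 in set A (64 above 0), 0.32 in tag 2 (73 above 0) and 0.12 in tag 4 (48 above 0). The spread was wide in tag 4, with quartiles of -0.16 and 0.40, against 0.16 and 0.47 in tag 2. Set beside the set B total RNA fold changes, the heavy ratios of the 76 genes had r = 0.755 in tag 4, 0.483 in set A and -0.065 in tag 2. In light polysomes these were 0.813, 0.464 and -0.01. Of the 19 genes that fell in set B total RNA, 15 were below 0 in heavy tag 4 and 1 in heavy tag 2. The total RNA fit and the pools share no library. Tag 2 occurs both in total RNA (tags 2 and 3) and in the pools (tags 2 and 4). The headers do not say whether it marks the same cells in both. The cause of the difference between tags was not tested.

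**Figure D5:**
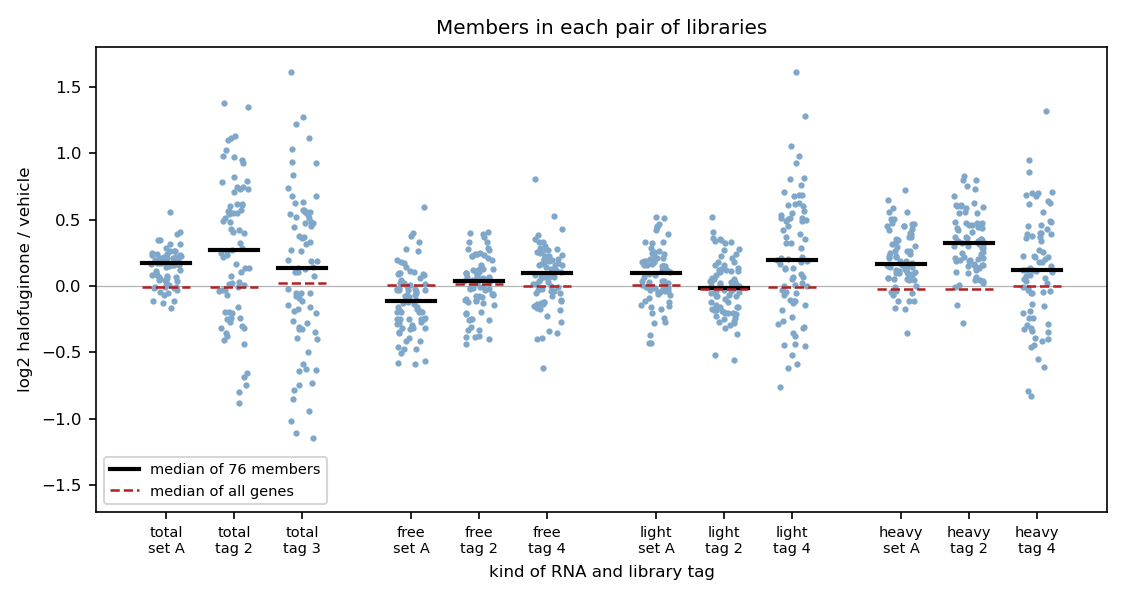
Log2 ratio of halofuginone to vehicle (y) in each pair of libraries that share a tag (x) for total RNA and the 3 pools. Points are the 76 genes, black lines their median and red dashed lines the median of all genes, and the black lines lie above the red ones in all 3 heavy pairs.

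Whether the treatment changed the distribution between pools was asked of the difference of differences. Between heavy polysomes and the ribosome-free pool 0 of 76 genes passed edgeR's test (0% of all genes, smallest adjusted p 1), with 0 at an unadjusted p under 0.05 and 0 by DESeq2. The median was 0.36 toward heavy polysomes and 74 of 76 genes (97.37%) were above 0, against 0.08 and 58.23% for all genes. Mrpl1 (0.94 ± 0.64) and Mrps14 (0.81 ± 0.87) were highest, and Mrps34 (-0.06 ± 0.60) and Mrps15 (0.02 ± 0.92) lowest among genes of at least 5 CPM. The median of the 76 genes was 0.25 in set B alone and 0.32 with the tag as a block. Without 1 ribosome-free library of set A, which leaves set A unequal between treatments, it was -0.48 (vehicle left out) or 0.98 (halofuginone left out). It was 0.03 without halofuginone ribosome-free tag 2 and 0.02 without tag 4.

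Between heavy and light polysomes 0 of 76 genes passed edgeR's test for a changed ratio (0% of all genes, smallest adjusted p 1), with 0 at an unadjusted p under 0.05 and 0 by DESeq2. The median was 0.07, and 53 of 76 genes (69.74%) were above 0, against 40.33% of all genes. The sign of the median was not stable, at -0.024 without vehicle light tag 4 and -0.029 without halofuginone light tag 2. It was 0.20 without halofuginone light tag 4, 0.22 without halofuginone heavy tag 4, 0.15 with DESeq2, 0.16 with plain totals and 0.19 with a mean of at least 5 CPM. Mrps14 (0.43 ± 0.37) and Mrpl36 (0.39 ± 0.34) were highest and Mrps22 (-0.42 ± 0.53) and Mrpl37 (-0.38 ± 0.47) lowest among genes of at least 5 CPM. The cytosolic ribosomal proteins had a larger median here, 0.19, with 75 of 79 genes above 0.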

How the data were processed

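Messenger RNA from total RNA and from 3 polysome pools was sequenced in 24 libraries, 8 groups of 3. The authors deposited raw read counts per gene in 1 table. Per the submitters' processing notes, reads were processed with Trimmomatic 0.36, STAR 2.5.2b and featureCounts (Subread 1.5.0p3) on GRCm38.p5, with strand and multimapping settings not given in the sources used here. Column headers were matched to groups, not to single samples.

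The 77 genes and the gene lists were chosen with earlier results of these data known. Genes were named by a rule (fixed genes of known role, and the extremes of each comparison among genes of at least 5 CPM), and a few others were named after their values were seen. Coding-length classes, promoter motifs and the separate set B fit of total RNA were also chosen with results known. The gene lists of the mitochondrial translation system were written for this work.

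edgeR 4.0.16 in R 4.3.3 was used with filterByExpr, TMM scaling within the libraries fitted, the quasi-likelihood test and Benjamini-Hochberg adjustment over all genes. Printed CPM are TMM-scaled within a kind of RNA. Pool shares use CPM scaled over the pool libraries, and pair ratios add 0.5 CPM. DESeq2 1.42.0, other scalings and filters, a replicate block, set B alone and leaving out each library were alternatives. The scripts were tested on simulated data. Totals of 10300517 to 24970047 counts per library leave the spread between libraries as the main error, and p-values measure only that spread.

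Tags paired the pool libraries, since deviations of same-tag libraries from their group means correlated above 0.1 in every comparison of pools over 10129 genes, from 0.214 to 0.923. In total RNA the correlations were 0.386, 0.43 and 0.007, so those libraries were not treated as paired.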

Additional observations from a re-analysis of the deposited data

How the results depend on the processing

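Calls between treatments in the ribosome-free, light and heavy pools, and for both changes in distribution, numbered 0 under every alternative run. In total RNA DESeq2 called 1 gene higher, and set B alone gave 37 higher and 19 lower. For heavy against ribosome-free in vehicle, the number higher was 0 with median-of-ratios factors, 13 with plain library totals (6 lower), 3 with no filter, 0 with a mean of at least 5 CPM, and 27 in set B alone. With halofuginone that number was 1 with median-of-ratios factors, 16 with plain totals, 4 with no filter, 1 with a mean of at least 5 CPM, and 6 in set B alone (3 lower), and DESeq2 gave 12 lower. For heavy against light with halofuginone DESeq2 gave 9 higher and set B alone 0 higher and 0 lower. The causes were not tested. Calls over all genes were not counted in the alternative runs, including those without 1 library, apart from set B in total RNA and the replicate block.

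With the replicate block by tag, heavy against ribosome-free gave 2 higher in vehicle and 5 with halofuginone, and heavy against light gave 27 higher in vehicle and 22 higher and 18 lower with halofuginone. In total RNA of set B the block gave 34 higher and 17 lower. No other count moved by over 1.5 times with the block.

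Leaving out 1 library at a time gave 0 to 30 higher and 0 to 16 lower in total RNA, and 28 to 40 and 11 to 24 in its set B. Heavy against ribosome-free gave 0 to 27 and 6 to 13 in vehicle and 0 to 19 and 2 to 6 with halofuginone. Heavy against light gave 5 to 15 and 12 to 19 in vehicle and 0 to 2 and 0 to 7 with halofuginone.

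Some uncalled gene values changed sign. Between treatments Mrps12 in the ribosome-free pool was 0.034 in set B alone. The change in heavy against ribosome-free of Mrps15 was -0.0102 with DESeq2, -0.0101 with median-of-ratios factors, -0.0589 with plain totals, -0.0345 with the replicate block and -0.0796 in set B. Leaving out 1 library, the ribosome-free values ran from -0.019 to 0.64 for Mrpl47, -0.20 to 0.48 for Mrpl24, -1.36 to 0.57 for Mrps36, -1.50 to 1.15 for Mrps12 and -0.97 to 0.62 for Mrpl17. The light value of Mrpl24 ran from -0.26 to 1.15, and the heavy value of Mrpl4 from -0.24 to 0.10. For heavy against ribosome-free the change ran from -0.36 to 1.64 for Mrps14, -0.80 to 0.21 for Mrps34 and -1.24 to 1.03 for Mrps15. For heavy against light it ran from -0.66 to 0.19 for Mrps22 and -0.71 to 0.0066 for Mrpl37.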
